A study of Rattus norvegicus with 56 samples.

Results

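miR-210-3p was 1 of 682 microRNAs listed in the 5 deposited count tables, which cover 661 microRNAs in myocardium, 523 in amniotic fluid and 518 in maternal serum. It was chosen by name, from the row of the mature miR-210-3p without its species prefix. The rule used no measured value, but earlier results of these data were known when the choice was made. Small RNA sequencing was performed on 56 samples from Sprague-Dawley rats collected on embryonic day 19. Dams of the treated groups had received dimethadione (DMO), a teratogen that causes heart defects, by oral gavage, and dams of the negative control (NC) group had received distilled water. Fetuses of DMO dams were divided into a VSD group, which had a ventricular septal defect without malformation of the great vessels, and a non-VSD group, in which the septum was intact. There were 7 samples of each group (NC, VSD and non-VSD) from myocardium and as many from amniotic fluid, whereas serum of the dams was sequenced for NC and VSD only, again with 7 samples each. The non-VSD group is therefore exposed to the same agent as the VSD group, and a comparison of either with NC is a comparison with unexposed litters. The labels do not say which samples share a dam or a litter, so the p-values below measure only the spread between these samples. Myocardial RNA came from wax blocks of the fetal heart, amniotic fluid RNA from the supernatant after centrifugation, and serum RNA from the dam. Fetuses with hernia or oedema were not included.

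MicroRNAs are short RNAs that pair with messenger RNAs through their seed, the bases near the 5′ end, and lower the stability or translation of their targets. miR-210 is the best known microRNA of the hypoxia response: when oxygen is low, the hypoxia-inducible factor HIF-1α binds near the gene and raises its transcription. Known targets include the iron-sulfur cluster scaffold ISCU and the ephrin EFNA3, through which miR-210 lowers mitochondrial respiration and acts on vessel growth. Oxygen tension was not measured in these samples.

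In the RefSeq table of the GRCr8 build, the Mir210 hairpin lies at chr1:205755923-205756032 on the minus strand. It overlaps the long non-coding RNA gene LOC102553043. Whether it lies wholly within that gene, and whether it is exonic or intronic there, was not analysed here. The mature 3p arm lies at chr1:205755946-205755967 and the 5p arm at chr1:205755984-205756005. Both arms and the hairpin are shown because the counts below distinguish the arms. miR-147 is shown because it was the only other of 724 mature rat microRNAs with the same bases 2 to 7. Capitals mark bases 2 to 8 in the arms, bases 2 to 7 in miR-147 and both mature arms in the hairpin.
miR-210-3p: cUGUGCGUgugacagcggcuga
miR-210-5p: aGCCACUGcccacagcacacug
miR-147: gUGUGCGgaaaugcuucugcua
mir-210 hairpin: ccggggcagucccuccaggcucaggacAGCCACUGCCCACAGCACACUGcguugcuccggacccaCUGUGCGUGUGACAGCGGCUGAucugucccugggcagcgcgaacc

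No other mature microRNA of the table shared bases 2 to 8 with miR-210-3p, and the closest one differed from it by 9 edits. Among the 617 of 682 listed microRNAs that have a sequence there, its counts are therefore not divided with a near-identical mature paralog. The remaining listed microRNAs could not be compared. A second annotated gene, Mir3574, lies on the opposite strand, and its mature sequence ucagccgcugucacacgcacag at the same positions is the reverse complement of miR-210-3p. miR-3574 was not analysed here.

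miR-210-3p was read in all 56 libraries, but at very different depth. Total counts over the listed microRNAs were between 1694811 and 9371130 in myocardium, between 78188 and 331787 in amniotic fluid and between 147609 and 581350 in maternal serum. The libraries held between 832 and 11253 reads of miR-210-3p in myocardium, between 1 and 60 in amniotic fluid and between 44 and 251 in serum. Ordered by read count, miR-210-3p took rank 72 to 135 among the microRNAs of a myocardium library (median 107), rank 84 to 121 in serum (median 107) and rank 139 to 274 in amniotic fluid (median 177). Among the microRNAs detected in a library it stood 12.1 to 22.2% from the top in myocardium, 21.3 to 30.9% in serum and 39.6 to 96.8% in amniotic fluid, where it was more than 50% from the top in 16 of 21 libraries. The tables list different numbers of microRNAs and come from different kits, so these ranks are not compared between sample types.

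The 3p arm made up nearly all reads of the hairpin. In myocardium, 84651 reads of miR-210-3p stood against 223 of miR-210-5p, or 380 reads of the 3p arm for each read of the 5p arm, and the 5p arm was read in 21 of 21 libraries. In serum the sums were 1520 and 8 reads, with the 5p arm in 5 of 14 libraries. In amniotic fluid they were 609 and 19 reads, with the 5p arm in 3 of 21 libraries. Most of the latter came from 1 library: replicate 5 of the NC group held 14 reads of the 5p arm beside 60 of the 3p arm, a share of 18.9% (exact 95% binomial interval 10.7 to 29.7%). The other 2 were NC replicate 4 with 2 reads and non-VSD replicate 6 with 3. Where the 5p arm had 0 reads in amniotic fluid, the upper bound of its share was between 6.37% and 97.5%, so its absence is poorly determined there. Such intervals cover counting error only.

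**Figure D1:**
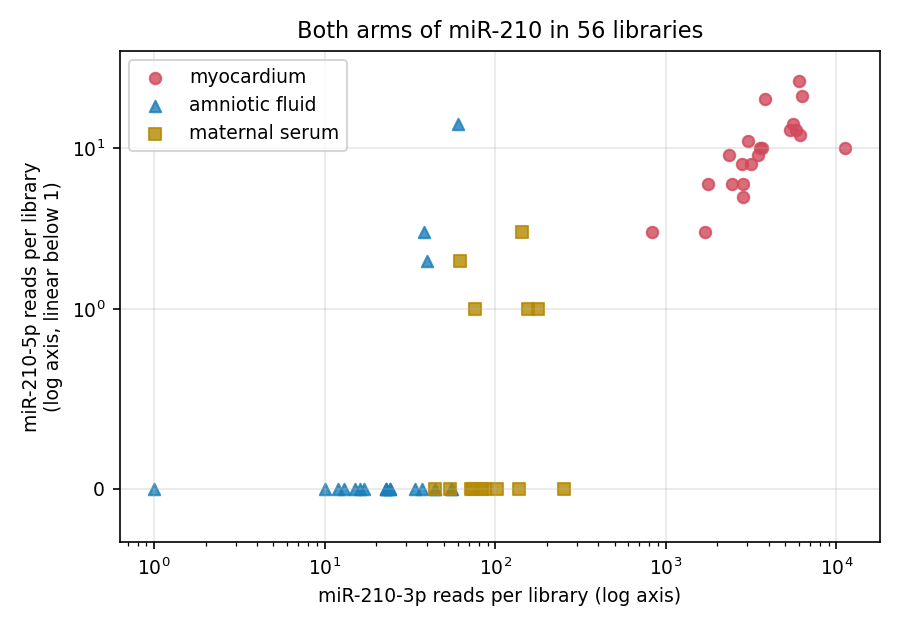
Reads of miR-210-5p (vertical axis, log scale that is linear below 1) against reads of miR-210-3p (horizontal axis, log scale) in each of 56 libraries, by sample type. The 21 myocardium libraries lie at 832 to 11253 reads of the 3p arm and 3 to 26 of the 5p arm, and most amniotic fluid and serum libraries lie at 0 reads of the 5p arm.

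In myocardium, the question was whether the level of miR-210-3p differed with DMO exposure or with the septal defect. Levels of miR-210-3p are given as CPM (counts scaled to a total of 1e6) after TMM scaling, which adjusts library totals on the assumption that most microRNAs do not differ. Sums of marker microRNAs, here and in the other sample types, are library-scaled CPM without TMM. The NC group had a lowest level of 307 CPM, a median of 777 and a highest of 941 (mean 677 ± 256, SD, n = 7). The non-VSD group ranged from 395 to 1052 CPM with a median of 609 (mean 655 ± 248, SD, n = 7). The VSD group ranged from 266 to 1190 CPM with a median of 442 (mean 542 ± 323, SD, n = 7). The 3 groups overlapped over most of their range. In the VSD group 6 of 7 libraries were below the NC median, and the remaining one, replicate 7 with 11253 reads, had the highest level of all 21.

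The VSD group differed from the NC group by -0.32 on the log2 scale (SE 0.35, 95% interval -1.07 to 0.42, edgeR adjusted p = 0.616), a fold change of 0.80 with an interval of 0.477 to 1.34. By unadjusted p, miR-210-3p took rank 280 of the 469 microRNAs tested, and 54.8% of them had a larger absolute log2 fold change. VSD replicate 7 decided much of this value, which was -0.64 when that library was left out (edgeR adjusted p = 0.211). Without VSD replicate 4 it was -0.20. The exact two-sided permutation test of the mean log2 level, over 3432 groupings, gave p = 0.301 (0.984 adjusted over 9 comparisons).

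The non-VSD group and the NC group had nearly the same fitted level, with a log2 difference of -0.00089 (SE 0.29, 95% interval -0.61 to 0.61, edgeR adjusted p = 0.998). In this group 5 of 7 libraries were below the NC median. The VSD group was compared with the non-VSD group at a log2 fold change of -0.28 (SE 0.33, 95% interval -0.97 to 0.42, edgeR adjusted p = 0.696), and both DMO groups together with NC at -0.18 (SE 0.29, 95% interval -0.78 to 0.41, edgeR adjusted p = 0.778). The exact permutation p-values were 0.931, 0.304 and 0.486 (0.984 each after adjustment). No difference in miR-210-3p passed the test in myocardium, at which 0.426% (VSD against NC), 0.219% (non-VSD against NC), 0% (VSD against non-VSD) and 8.49% (both DMO groups against NC) of all microRNAs were called. In these fits without covariates, the intervals do not cover a doubling in any of the 4 comparisons, whereas that of VSD against NC reaches below a halving. With the red blood cell score as a covariate, VSD against NC was 0.32 with a larger SE of 0.41, so the exclusion of a doubling is not claimed there. The comparisons with NC share the same 7 NC samples.

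**Figure D2:**
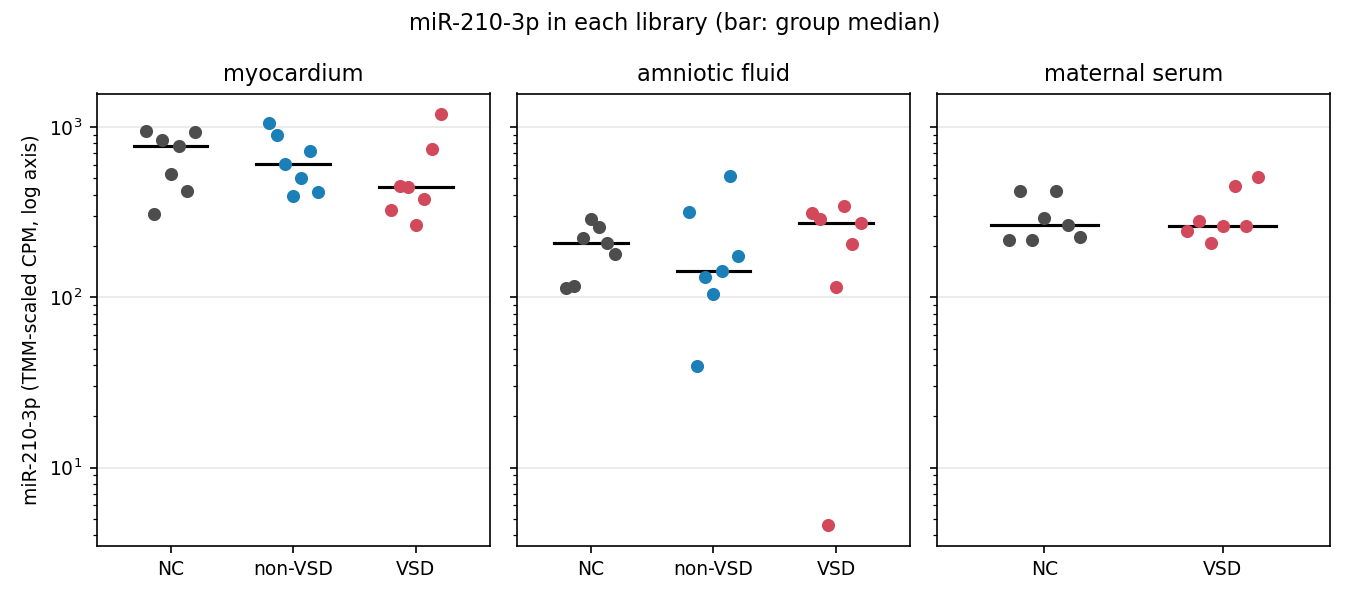
Level of miR-210-3p in each library as TMM-scaled CPM on a log axis, with 7 points per group and a bar at the group median, for myocardium, amniotic fluid and maternal serum. The groups overlap in each sample type, and 1 amniotic fluid library of the VSD group lies far below the rest at 4.60 CPM.

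The scaling matters for these small differences. Scaling by library size alone moved the median log2 fold change of all 469 microRNAs of VSD against NC from -0.05 to 0.32, a shift of 0.37, and that of miR-210-3p from -0.32 to 0.090. A change of scaling moves all microRNAs of a comparison by a similar amount, so the place of miR-210-3p below the median microRNA could hardly change. The sign of its own difference was not kept. The corresponding shift of the median was 0.20 for non-VSD against NC, 0.17 for VSD against non-VSD, and 0.31 for both DMO groups against NC. In amniotic fluid and serum it was at most 0.09 in absolute value.

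The level of miR-210-3p in myocardium moved with the tissue markers of the library. All 7 heart muscle microRNAs of the list, among them miR-1-3p, miR-133a-3p and miR-208a-3p, were read in every group, and their summed level was between 16390 and 154400 CPM, so the labelled tissue is present. The 8 epithelial microRNAs (the miR-200 family, miR-203a-3p, miR-205 and miR-375-3p), which heart muscle makes little of, were also read. Their sum was 167 to 17530 CPM in the NC group, 296 to 7238 in the non-VSD group and 1910 to 21160 in the VSD group. It exceeded 10000 CPM in 4 libraries, 1 NC (replicate 2) and 3 VSD (replicates 1, 4 and 5). These 4 had the lowest TMM-scaled levels of miR-210-3p, 266 to 379 CPM. Their TMM factors were high, 1.18 to 1.39, and by library-scaled CPM VSD replicates 1 (452) and 5 (449) lay above 4 other libraries (387 to 440). The summed level of the red blood cell list (miR-451-5p, miR-144-3p, miR-144-5p, miR-486 and miR-16-5p) also moved with the groups. Its median was 30910 CPM in NC (5097 to 76530), 11430 in VSD (7340 to 25790) and 9832 in non-VSD (4792 to 37180).

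Over the 21 libraries, with each group centred on its own mean, the log2 level of miR-210-3p was correlated with the epithelial level at Pearson's r = -0.80 (permutation p = 3e-05, 0.00036 adjusted over 12 relations) and Spearman's rho = -0.86 (permutation p = 3e-05, adjusted 0.00036). Leaving out the 2 libraries farthest from the median epithelial level gave r = -0.74. With the heart muscle level, r was 0.67 (permutation p = 0.00071, adjusted 0.00426) and rho 0.55 (permutation p = 0.013, adjusted 0.0777), and r was 0.59 without the 2 farthest. With miR-210-3p scaled by library size alone, r was -0.64 for the epithelial level and 0.48 for the heart muscle level. The pooled correlations with the red blood cell level (r = 0.18, permutation p = 0.44, adjusted 0.594) and with the library total (r = 0.05, permutation p = 0.861, adjusted 0.861) were small and did not pass the test. For the red blood cell level, the direction differed between groups. In NC, replicate 2 had the lowest level of both (5097 CPM beside 307 of miR-210-3p). Replicates 1 (60500 beside 941) and 7 (76530 beside 928) had the highest. In non-VSD, replicate 1 had 6765 beside 1052 and replicate 7 had 37180 beside 416. In VSD, replicate 7 had 7340 beside 1190 and replicate 6 had 25790 beside 741. Relations within single groups were not tested. With the red blood cell score as a covariate, VSD against NC was 0.32 (SE 0.41, edgeR adjusted p = 0.792) in place of -0.32. All levels in a library share its total, so part of any such relation can come from composition.

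Without the 4 libraries above 10000 CPM of epithelial microRNAs, a limit chosen after the data were seen, 17 libraries remained, and the comparison of 4 VSD with 6 NC libraries changed from -0.32 to -0.017 (SE 0.33, edgeR adjusted p = 0.992). As these libraries also had the lowest TMM-scaled levels of miR-210-3p and 3 of them were VSD, a move in that direction follows from leaving them out, and the value is no evidence on composition. The comparison of VSD with non-VSD changed from -0.28 to 0.084 (SE 0.32, edgeR adjusted p = 0.951). Fitted beside the epithelial score of all 14 libraries, the former was 0.39. The part of tissue composition in the levels of miR-210-3p was not tested. In bulk samples, fewer cells of a type and less RNA per cell cannot be told apart.

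**Figure D3:**
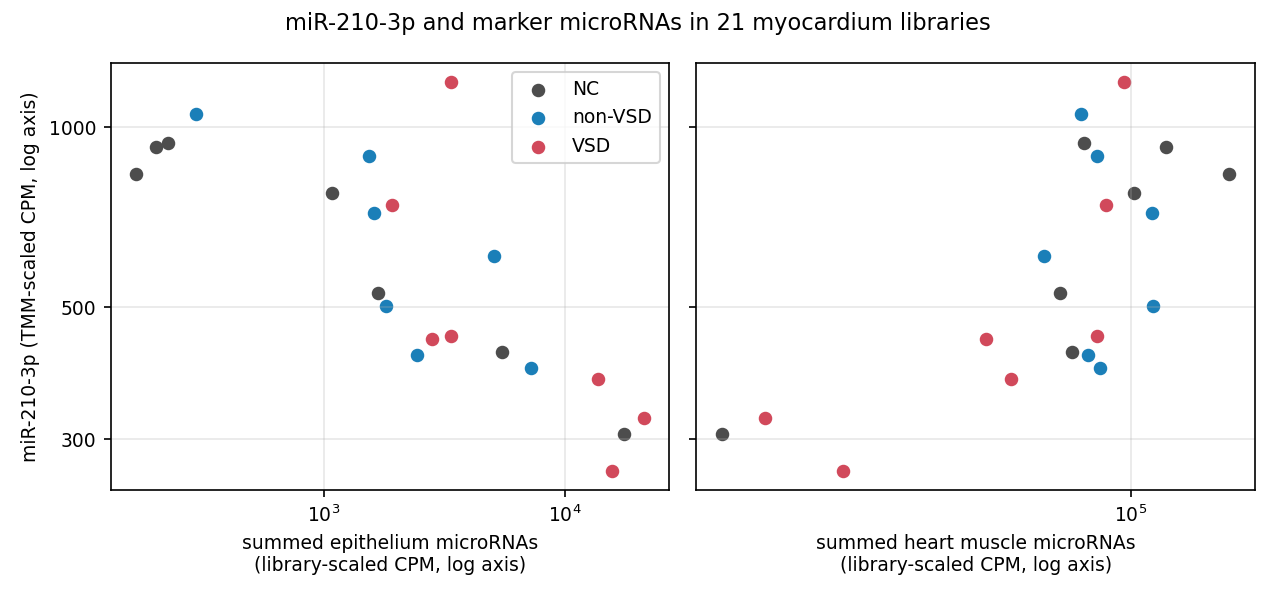
Level of miR-210-3p (TMM-scaled CPM, log axis) against the summed level of 8 epithelial microRNAs (left) and of 7 heart muscle microRNAs (right), both library-scaled CPM on a log axis, in 21 myocardium libraries. The 4 libraries above 10000 CPM of epithelial microRNAs have the 4 lowest TMM-scaled levels of miR-210-3p.

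The microRNAs with the pattern most like that of miR-210-3p over the 21 myocardium libraries, by Pearson's r of group-centred log2 CPM among 482 compared, were miR-490-3p (r = 0.92), miR-107-3p (r = 0.89) and miR-500-3p (r = 0.88). miR-490-3p is produced from an intron of the gene of the muscarinic receptor CHRM2, which is expressed in heart, and miR-107-3p belongs to the miR-103/107 family. The heart muscle microRNA miR-133a-3p also had a high value, r = 0.87. These values describe libraries that share a total and a scaling. The within-group SD of the log2 level of miR-210-3p was 0.64, beside a median of 0.50 for 65 microRNAs of similar level, of which 40% had a larger one.

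In amniotic fluid, the same question was asked of RNA outside the heart. The NC group ranged from 114 to 289 CPM with a median of 208 (mean 199 ± 66.9, SD, n = 7). The non-VSD group ranged from 39.6 to 518 CPM with a median of 142 (mean 204 ± 162, SD, n = 7). The VSD group ranged from 4.60 to 345 CPM with a median of 273 (mean 220 ± 122, SD, n = 7). The NC levels lay within the range of both DMO groups, whose spread was larger. VSD replicate 3 held 1 read of miR-210-3p in a total of 193037, and non-VSD replicate 2 held 13 in 331787, while non-VSD replicate 6, with the smallest total of 78188, held 38 and had the highest level.

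The VSD group differed from the NC group by 0.16 on the log2 scale (SE 0.59, 95% interval -1.08 to 1.39, edgeR adjusted p = 0.903) and the non-VSD group by 0.089 (SE 0.59, 95% interval -1.15 to 1.33, edgeR adjusted p = 0.958). The VSD group differed from the non-VSD group by 0.12 (SE 0.64, 95% interval -1.20 to 1.44, edgeR adjusted p = 0.941), and both DMO groups from NC by 0.080 (SE 0.56, 95% interval -1.07 to 1.23, edgeR adjusted p = 0.972). None passed the test, at which 0% (VSD against NC), 4.96% (non-VSD against NC), 0% (VSD against non-VSD) and 0.733% (both DMO groups against NC) of all microRNAs were called. Each interval covers both a halving and a doubling, so a change of that size was not excluded. The mean log2 levels of VSD and NC differed by -0.21 (exact permutation p = 0.878), opposite in sign to the fitted fold change. The mean log2 difference was also opposite for non-VSD against NC, at -0.22 (exact permutation p = 0.634), and for both DMO groups against NC, at -0.22 (exact permutation p = 0.699). It was 0.014 for VSD against non-VSD (exact permutation p = 0.984). The adjusted p of each of these 4 permutation tests was 0.984. Medians were tested after the 1-read library was seen. They differed by 0.37 for VSD against NC (exact permutation p = 0.371), -0.51 for non-VSD against NC (exact permutation p = 0.441) and 0.88 for VSD against non-VSD (exact permutation p = 0.417). Without VSD replicate 3 the fitted value was 0.41, and without non-VSD replicate 6 the comparison of non-VSD with NC was -0.34.

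The NC libraries held 10 to 60 reads. At the mean count of the group, counting alone gives a coefficient of variation of 18.0%. The observed one between samples, by library-scaled CPM, was 30.6%. In the VSD group they were 18.3% and 60.7%, and in the non-VSD group 19.4% and 73.0%. Libraries with fewer reads than the mean have a larger counting error than these values. By TMM-scaled CPM the observed coefficient was 33.7% in NC, 55.2% in VSD and 79.5% in non-VSD. The within-group SD of the log2 level was 1.12, beside a median of 1.37 for 71 microRNAs of similar level, of which 80.3% had a larger one. The most similar patterns among 272 microRNAs were those of miR-28-3p (r = 0.65), miR-425-5p (r = 0.60) and miR-10a-3p (r = 0.60), lower than the values in myocardium.

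Maternal serum gave the tightest levels. The NC group ranged from 215 to 423 CPM with a median of 264 (mean 294 ± 91.2, SD, n = 7). The VSD group ranged from 210 to 505 CPM with a median of 262 (mean 317 ± 114, SD, n = 7). The groups overlapped, with 1 VSD library below and 2 above the NC range. The log2 fold change was 0.11 (SE 0.25, 95% interval -0.42 to 0.63, edgeR adjusted p = 0.887; exact permutation p = 0.667), a fold change of 1.08 with an interval of 0.748 to 1.55, which excludes a halving and a doubling. No microRNA passed the adjusted test in serum (0% of 219), and 13.7% had an unadjusted p under 0.05. Without VSD replicate 7 it was -0.094, and without VSD replicate 3 it was 0.27. The observed coefficient of variation by library-scaled CPM was 28.1% in the NC group and 27.4% in the VSD group, against 8.86% and 10.5% from counting at the mean count. By TMM-scaled CPM it was 31.1% in NC and 35.9% in VSD. The within-group SD of the log2 level was 0.44, beside 0.49 for 53 microRNAs of similar level. The most similar patterns among 218 microRNAs were those of miR-27a-3p (r = 0.82), miR-130a-3p (r = 0.82) and miR-19b-3p (r = 0.78) over 14 libraries.

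**Figure D4:**
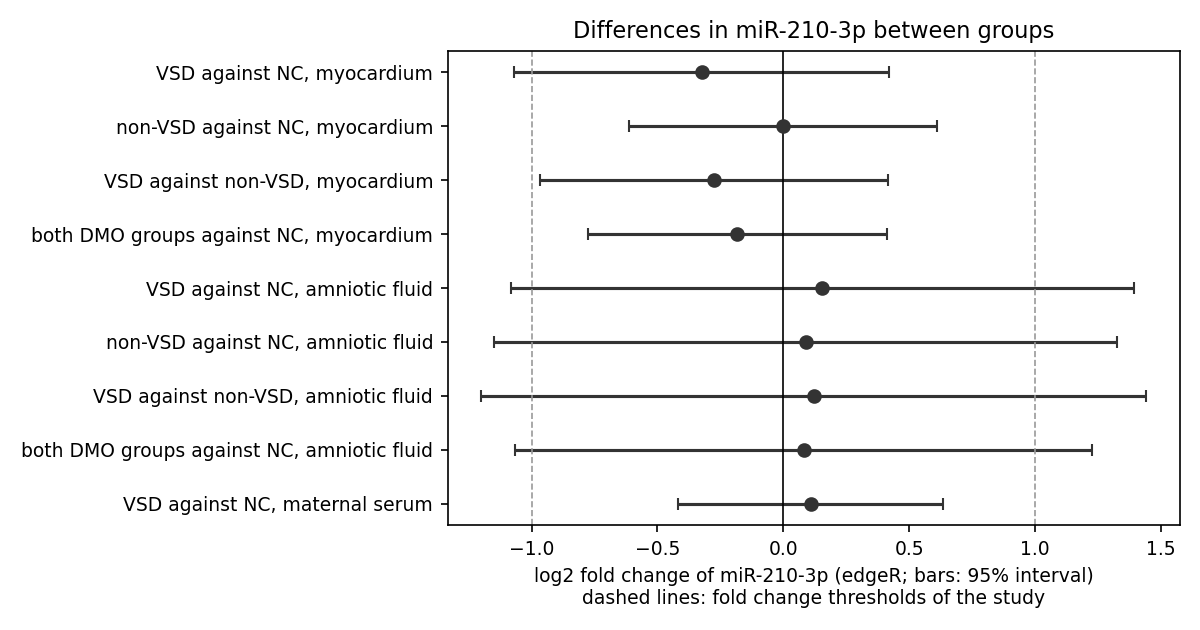
Log2 fold change of miR-210-3p in 9 comparisons from edgeR, with 95% intervals; the vertical line marks no difference and the dashed lines a log2 change of -1 and 1. All 9 intervals cross 0, and those of amniotic fluid are the widest.

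Whether the change in miR-210-3p differed between sample types was tested on the mean log2 level. Group labels were permuted separately in each sample type, which treats the types as independent. Samples of different types may share a fetus or dam, which the labels do not say. The VSD minus NC change was -0.39 in myocardium, -0.21 in amniotic fluid and 0.092 in serum. The difference was -0.18 between myocardium and amniotic fluid (permutation p = 0.831), -0.48 between myocardium and serum (permutation p = 0.271) and -0.30 between amniotic fluid and serum (permutation p = 0.74). The non-VSD minus NC change was -0.026 in myocardium and -0.22 in amniotic fluid, a difference of 0.20 (permutation p = 0.716). All 4 had an adjusted p of 0.831. Levels themselves were not compared between sample types, since kit, sequencer and sample type cannot be told apart.

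miR-210-3p is one output of the hypoxia response, and a list of 19 other microRNAs linked to hypoxia was examined beside it. It holds miR-210-5p, the miR-23/27/24 and miR-26 families, the miR-103/107 and miR-181 families, miR-21-5p, miR-155-5p, miR-322-5p, miR-17-5p, miR-20a-5p and miR-199a-5p, of which several are reported to be induced and others to act on HIF-1α or its regulators. Counts below are at an unadjusted p under 0.05, and the share of all tested microRNAs at that p is given beside each. A count of members near that share is no result about the list. As the list was chosen with earlier results of these data known, a count above that share is no independent evidence either.

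In myocardium, 4 of 19 list members had an unadjusted p under 0.05 in VSD against NC, 3 higher and 1 lower, against 19.2% of all 469 microRNAs (6.61% higher, 12.6% lower). The list's median log2 fold change was 0.10, and that of all microRNAs tested was -0.05. miR-155-5p, a microRNA of immune cells, was at 0.85 (SE 0.35, edgeR adjusted p = 0.197), and at 0.41 without VSD replicate 3. The white blood cell list was at lower medians in the DMO groups, with 1255 CPM in NC (525 to 3013), 694 in VSD (309 to 1100) and 584 in non-VSD (354 to 2087). The part of white blood cells in the value of miR-155-5p was not tested. miR-181a-5p was at 0.33 and miR-181c-5p at 0.50. miR-26a-5p was at -0.54 (SE 0.16, edgeR adjusted p = 0.0803). None of the 4 passed the adjusted test in this comparison. The count fell to 1 without NC replicate 3 or 5 or VSD replicate 3, and to 2 without NC replicate 1, 4 or 6 or VSD replicate 1. It was 0 with the red blood cell score as a covariate and 2 with the replicate number as a block.

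In non-VSD against NC, 3 of 18 members had an unadjusted p under 0.05, all higher, against 17.5% of all microRNAs (8.55% higher, 8.99% lower). They were miR-155-5p at 0.75 (SE 0.21, edgeR adjusted p = 0.091), miR-322-5p at 0.67 and miR-24-3p at 0.61. The median of the list was 0.06, and of all tested -0.07. In VSD against non-VSD, 5 of 19 had such a p, 4 higher and 1 lower, against 11.6% (8.07% higher, 3.52% lower). miR-24-3p was lower, at -0.43, and the 4 that were higher were miR-181c-5p (0.50), miR-20a-5p (0.48), miR-199a-5p (0.46) and miR-181a-5p (0.33), each with an edgeR adjusted p of 0.426. The count fell to 1 without VSD replicate 3 or non-VSD replicate 6 or 7, to 2 without non-VSD replicate 2, and to 3 without NC replicate 6, VSD replicate 1 or 5 or non-VSD replicate 1. It was 0 without the 4 libraries rich in epithelial microRNAs. The list's median was -0.11 and that of all tested 0.02.

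With both DMO groups against NC, 4 of 19 members had an unadjusted p under 0.05, 3 higher and 1 lower, against 21.1% of all 483 microRNAs (8.07% higher, 13% lower). Of these, miR-26a-5p was lower by the adjusted test (log2 fold change -0.45, SE 0.12, edgeR adjusted p = 0.0249). With the red blood cell covariate the count of 4 was 1. The call of miR-26a-5p was lost under 6 of 12 other settings, and without NC replicate 1, 3, 5 or 7 or non-VSD replicate 2. Scaled by library size alone, miR-26a-5p was at -0.083. Its separate values were -0.54 in VSD and -0.32 in non-VSD. The others were miR-155-5p (0.78), miR-322-5p (0.56) and miR-24-3p (0.36). Endothelial miR-126a, both arms summed, was at 10640 to 16520 library-scaled CPM in NC, 16150 to 30570 in VSD and 20140 to 29100 in non-VSD. TMM factors ran from 0.63 to 1.23 in NC and from 0.96 to 1.39 in VSD. TMM scaling would therefore bring the NC and VSD ranges of miR-126a closer. The part of miR-126a in the fold changes above was not tested. The list's median was 0.05, and that of all tested -0.06.

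In amniotic fluid, 5 of 17 members had an unadjusted p under 0.05 in VSD against NC, 2 higher and 3 lower, against 13.5% of all 245 (5.71% higher, 7.76% lower). miR-103-3p was at 0.92 (SE 0.28, edgeR adjusted p = 0.174) and miR-107-3p at 0.84, while miR-322-5p was at -0.80, miR-27b-3p at -0.71 and miR-23a-3p at -0.57. In non-VSD against NC there were 6 of 17, 3 higher and 3 lower, against 19.4% (11.2% higher, 8.26% lower). miR-27b-3p was lower by the adjusted test (log2 fold change -1.41, SE 0.30, edgeR adjusted p = 0.0272), miR-27a-3p was at -1.13 and miR-26a-5p at -0.62, and miR-103-3p (1.01), miR-107-3p (0.86) and miR-181b-5p (0.64) were at positive values, though miR-103-3p was at -0.079 with the red blood cell covariate. White blood cell microRNAs had a median of 2889 CPM in NC (543 to 6967), 3131 in VSD (1092 to 28310) and 9476 in non-VSD (1752 to 26630). The median of miR-126a was 683 in NC (543 to 2026), 698 in VSD (160 to 3448) and 1918 in non-VSD (902 to 4440). The part of these markers in the list's values was not tested. The medians of the list were -0.30 and -0.04, and those of all tested -0.06 and 0.11. miR-27b-3p was also lower in both DMO groups together (-1.13, SE 0.24, edgeR adjusted p = 0.0178), where 7 of 17 had an unadjusted p under 0.05, 2 higher and 5 lower, against 16.5% (6.96% higher, 9.52% lower). That count fell to 4 with the red blood cell covariate and without NC replicate 5, VSD replicate 3 or 4, or non-VSD replicate 4. The call of miR-27b-3p was lost without NC replicate 1 or 3 or non-VSD replicate 5 in non-VSD against NC (highest adjusted p 0.0671), and without NC replicate 3 or 6 or VSD replicate 4, with no filter on low counts or with a single DMO group of 14 in both DMO groups against NC (highest 0.0604 over all settings). In VSD against non-VSD, 3 of 17 had one, 1 higher and 2 lower, against 10.6% (5.49% higher, 5.13% lower): miR-27b-3p (0.77), miR-181a-5p (-0.81) and miR-181b-5p (-0.77). The comparisons with NC share its 7 samples.

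miR-27a-3p and miR-27b-3p differ by 1 edit, as do miR-103-3p and miR-107-3p, and each pair shares bases 2 to 8, shown in capitals. miR-181a-5p and miR-181c-5p, and miR-23a-3p and miR-23b-3p, also differ by 1 edit with the same bases 2 to 8. Reads of 1 member can be counted to the other, so the separate values of each pair, and their counts as separate members, are uncertain. The 2 pairs with values at an unadjusted p under 0.05 for both members in amniotic fluid are shown.
miR-103-3p: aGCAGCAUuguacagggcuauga
miR-107-3p: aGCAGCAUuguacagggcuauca
miR-27a-3p: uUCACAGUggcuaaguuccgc
miR-27b-3p: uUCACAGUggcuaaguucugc

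In maternal serum, 1 of 16 members had an unadjusted p under 0.05, miR-26a-5p at -0.72 (SE 0.30, edgeR adjusted p = 0.291), against 13.7% of all 219 (8.68% higher, 5.02% lower). The count was 0 without NC replicate 6, 6 without NC replicate 2, 4 without VSD replicate 5, 3 without NC replicate 1, 3 or 7, and 2 without VSD replicate 1, 3 or 6. The list's median was -0.23 and that of all tested -0.03. The white blood cell microRNAs were at 37910 to 68160 CPM in NC and 58330 to 80540 in VSD, and their part was not tested.

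The other arm, miR-210-5p, could be tested in myocardium alone. Its log2 fold change was -0.37 (SE 0.33, edgeR adjusted p = 0.527) in VSD against NC and -0.63 (SE 0.32, edgeR adjusted p = 0.44) in VSD against non-VSD. In both DMO groups against NC it was -0.056 (SE 0.28, edgeR adjusted p = 0.938). The libraries held 3 to 26 reads of it.

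**Figure D5:**
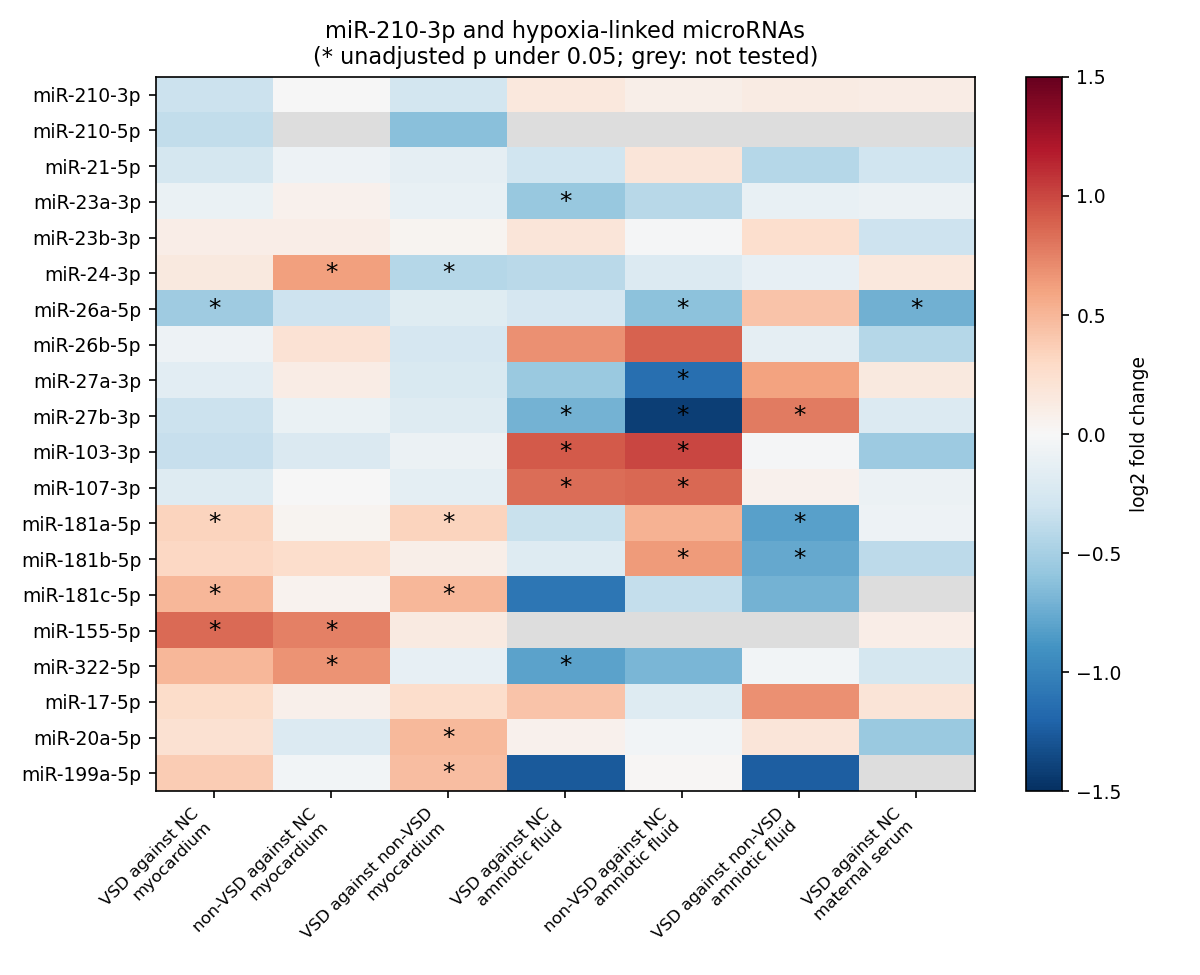
Log2 fold change of miR-210-3p (top row) and 19 hypoxia-linked microRNAs in 7 comparisons, in colour from blue (lower) to red (higher), with a star at an unadjusted p under 0.05 and grey where a microRNA was not tested. The row of miR-210-3p has no star, and the darkest blue is miR-27b-3p in the non-VSD amniotic fluid at -1.41.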

How the data were processed

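MicroRNA counts came from small RNA sequencing of 21 myocardium, 21 amniotic fluid and 14 maternal serum samples. The authors demultiplexed reads with bcl2fastq 2.19 and name FASTX-Toolkit, DESeq and limma; the aligner, annotation and build are not given in the sources used here, nor is the use of molecular identifiers. The authors deposited raw counts per mature microRNA, a normalized signal (each count scaled to a library total) for myocardium and serum, and CPM for amniotic fluid. The counts were analysed; the signal served only to recover the authors' library totals, and 28 CPM columns, 4 columns of group means and the authors' comparison columns (fold changes, p-values) were not used. The 2 amniotic fluid tables share 477 microRNAs; the 46 listed in 1 only were set to 0 in the other.

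Counts were filtered by filterByExpr (minimum count 10, minimum total 15), scaled by TMM and tested by edgeR 4.0.16's quasi-likelihood test in R 4.3.3, with Benjamini-Hochberg adjustment over all microRNAs tested. Pairs with NC used the 14 samples compared. VSD against non-VSD and both DMO groups against NC used all 21. The log2 level used a prior count of 2. Exact two-sided permutation tests served for single values (3432 groupings, or 116280 for both DMO groups against NC), and relations and differences between sample types were tested by 100000 permutations. miR-210 arms, list members at an unadjusted p under 0.05 and the 3 most similar microRNAs per sample type were named. The member and the lists were chosen with earlier results of these data known, and the study's own threshold is an unadjusted p under 0.05 beside a 2-fold rise or a fall to 0.5. Other fits used DESeq2 1.42.0 or limma 3.58.1 (on log2 CPM with a pseudocount of 1), other scalings, filters and covariates, and each sample left out. Scripts were tested on simulated data. Figures used Python 3.11.15 and matplotlib 3.10.9. Sequences are from RefSeq (GRCr8), where 617 of the 682 listed microRNAs have an entry.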

Additional observations from a re-analysis of the deposited data

Results flagged for a closer look

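In amniotic fluid, VSD replicate 3 had a miR-210-3p level of 4.13 on the log2 CPM scale (4.60 CPM, 1 read), far below the other VSD libraries. Its gap to the nearest of them was 0.658 of the group's range, past Dixon's 95% critical value for 7 samples. It was the only one of 32 such gaps (the highest and the lowest library of 8 groups, on a linear and a log2 scale) to exceed it. For normally distributed values, about 1 in 20 groups passes this value on each scale, and 8 groups on 2 related scales were examined. Why this library held 1 read was not tested. The 4 tests of a difference between sample types did not pass.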

How the results depend on the processing

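Over 249 alternative fits of the 9 comparisons, miR-210-3p reached an adjusted p under 0.05 in 0 and an unadjusted p under 0.05 in 0 (lowest 0.0544). Its sign changed in 44, namely 19 of 154 fits that left out 1 sample and 25 of 95 others, so the direction of these small differences is not established. The cause was not tested where a sign changed.

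In myocardium, VSD against NC was 0.090 with scaling by library size only, 0.045 with the authors' library totals, 0.32 with a red blood cell covariate and 0.39 with an epithelial one. Non-VSD against NC was 0.25, 0.21, 0.14 and 0.22 in that order, and 0.0099 with limma. Both DMO groups against NC was 0.17, 0.13, 0.021 and 0.31. VSD against non-VSD was 0.18 with the epithelial covariate, 0.033 with a heart muscle covariate and 0.084 with epithelial levels at most 10000 CPM. In amniotic fluid, limma gave -0.39 for VSD against NC, -0.19 for non-VSD against NC, -0.15 for VSD against non-VSD and -0.34 for both DMO groups against NC. The epithelial covariate gave -0.16 for non-VSD against NC, and the medians of VSD and NC differed by 0.37. In serum the heart muscle covariate gave -0.047. Between sample types, library-size scaling turned the VSD difference of myocardium and amniotic fluid to 0.29. miR-103-3p in non-VSD against NC amniotic fluid was -0.079 with the red blood cell covariate.

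Leaving out 1 sample gave ranges of -0.64 to -0.20 (VSD against NC), -0.15 to 0.083 (non-VSD against NC), -0.57 to -0.11 (VSD against non-VSD) and -0.37 to -0.057 (both DMO groups) in myocardium. In amniotic fluid they were 0.011 to 0.41, -0.34 to 0.29, -0.065 to 0.54 and -0.12 to 0.20, and in serum -0.094 to 0.27.

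Same-numbered samples had a correlation of deviations over 0.1 in 6 of 7 pairs in serum, 4 of 7 for VSD and non-VSD in myocardium, 2 of 7 for each DMO group with NC in myocardium and amniotic fluid, and 0 of 7 for VSD and non-VSD in amniotic fluid. As no comparison had all 7 pairs above 0.1 and the labels give no shared litter or batch, the numbers were not taken to pair the samples. These numbers are those of the sample titles. In myocardium, the deposited columns of some NC and VSD samples carry other numbers, and pairing by those was not tried. With the replicate number as a block, miR-210-3p in amniotic fluid was -0.067 (VSD against NC), -0.21 (non-VSD against NC) and -0.13 (both DMO groups against NC), and no comparison of miR-210-3p was called. In no comparison did every sample correlate best with its own number.

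Counts of list members at an unadjusted p under 0.05 moved with the scaling: by library size only they were 9 (VSD against NC), 5 (non-VSD against NC), 3 (VSD against non-VSD) and 10 (both DMO groups) in myocardium, and 0 in serum. With the red blood cell covariate they were 0 in VSD against NC and 1 in both DMO groups against NC in myocardium. With the replicate block they were 2 in VSD against NC and 3 in VSD against non-VSD in myocardium, and 3 in serum. A minimum of 10 counts in every sample removed miR-210-3p from amniotic fluid fits with the VSD group, so those gave no value. The amniotic fluid depth, 1 to 60 reads of miR-210-3p a library, limits every comparison there.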
